A study of Mus musculus with 6 samples.

Results

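The genes for the vascular endothelial growth factors (VEGF), the angiopoietins and their receptors were followed in cultured dermal cells of neonatal C57BL/6 mice, with and without a pair of small molecules. The group holds 10 of the 19938 genes that the arrays measured: the VEGF ligand genes Vegfa, Vegfb, Vegfc and Pgf, the VEGF receptor genes Flt1, Kdr and Flt4, the angiopoietin genes Angpt1 and Angpt2, and the angiopoietin receptor gene Tek. They were chosen by symbol, and each of the 10 has 1 probe set that names no other gene, so there are no further probe sets to report. The study compared 3 arrays labelled DMSO, the solvent, with 3 labelled FR. The series design gives the treated medium as holding forskolin and RepSox, both at 20 µM, for 2 days before RNA was taken. Forskolin switches on adenylyl cyclase and thereby raises cyclic AMP, while RepSox blocks the kinase of the type I TGF-β receptor. Both groups were cells cultured from neonatal skin, and the labels do not say how many animals or cultures they came from.

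VEGF-A is the main growth signal of blood vessel endothelium and acts through the receptor encoded by Kdr. The receptor encoded by Flt1 binds VEGF-A, VEGF-B and placental growth factor tightly, signals weakly, and also exists in a soluble form that traps its ligands. Flt4 encodes the receptor for VEGF-C and VEGF-D on lymphatic vessels. Angiopoietin-1, made by cells around vessels, activates the receptor encoded by Tek and steadies the vessel wall, while angiopoietin-2 often opposes it. In skin, keratinocytes and dermal fibroblasts are known sources of VEGF-A.

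Of the 10 genes, 3 were higher with FR (Vegfa, Angpt1 and Tek), 2 were lower (Flt1 and Angpt2) and 5 did not pass the test. The test was limma's moderated comparison on log2 values, FR minus DMSO, with adjusted p under 0.05 over all genes. The background was large: 27.9% of all genes passed, 13.4% higher and 14.5% lower. The values of the groups did not overlap for 8 of the 10, against 43.9% of all genes. Among these, Vegfb, Vegfc and Flt4 stood only just apart and did not pass. A change of at least 2-fold that passed was found for Flt1 and Angpt1, 2 of the 10, against 3.13% of all genes. The median log2 change of the 10 was -0.13, beside 0.05 for all genes.

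**Figure D1:**
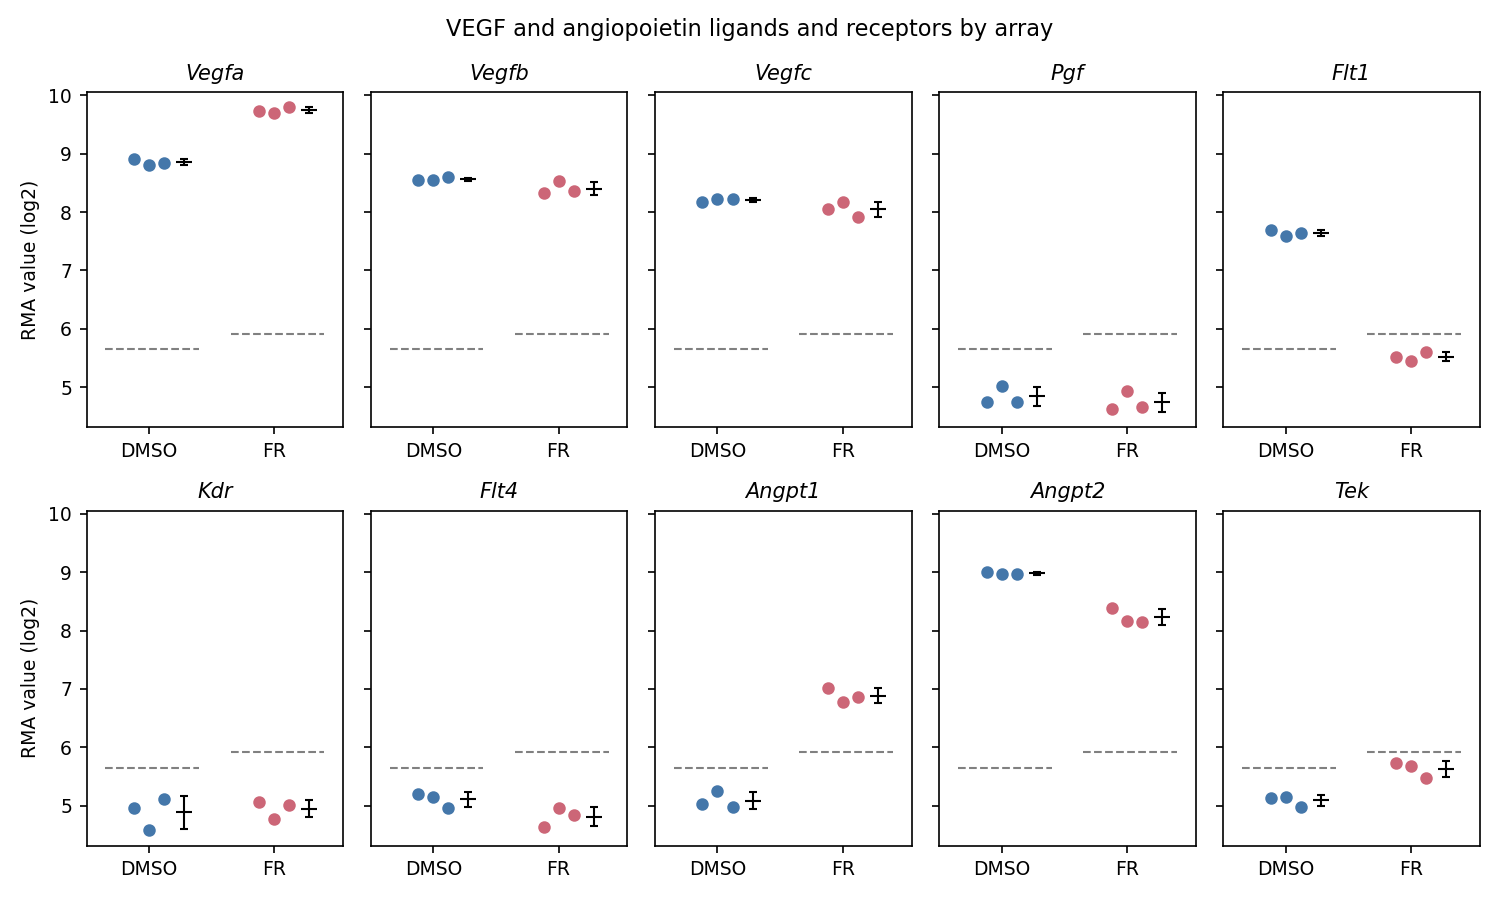
Values of the 10 genes on each array (points, log2 RMA values), with the mean and SD of the 3 arrays of a group beside them. Dashed lines give the 95th percentile of olfactory receptor genes in that group, 5.65 in DMSO and 5.92 in FR. Flt1 lies above the line in DMSO and under it in FR, Angpt1 the other way round, and Pgf, Kdr, Flt4 and Tek lie under it in both groups.

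How far a value can be read depends on its level. Olfactory receptor genes, which dermal cells are not known to use, served as background: the 95th percentile of the 1027 such genes was 5.65 in DMSO and 5.92 in FR. The genes Pgf, Kdr, Flt4 and Tek lay under that percentile on all 6 arrays. Where a gene lay under it on every array of 1 group, the fold is given as a lower bound, with the dim arrays put at the percentile of their own array. The olfactory receptor genes themselves had a median log2 change of 0.14, and 9.93% of them passed as higher against 0.58% as lower. The interquartile range over all probe sets was 2.86 to 2.90 in DMSO and 2.66 to 2.82 in FR. With arrays centred on their medians, the share of higher genes among those that passed was 35.3% in place of 48.0%.

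Levels of fibroblast genes fitted the dermal label. Of 12 fibroblast markers, 12 lay above background, among them Col1a1, Dcn and Pdgfra, with mean values of 10.35, 12.10 and 11.16 in DMSO. Their levels moved too: 5 of the 12 rose and 6 fell, where 13.4% of all genes rose and 14.5% fell. Log2 changes were -1.57 for Col1a2, -1.09 for Col1a1, 0.48 for Dcn and 2.17 for Lum. Many markers of keratinocytes and fat cells moved with FR. Of the 20 keratinocyte markers 4, and of the 9 adipocyte markers 2, lay under background on all 6 arrays. Of 20 keratinocyte markers 17 rose and 0 fell, and the mean over the list was 6.01 to 6.11 on the DMSO arrays and 6.99 to 7.09 on the FR arrays. Krt5 and Krt14 lay well above background in DMSO already, with means of 8.29 and 7.43, and had means of 10.46 and 9.01 in FR. Of 9 adipocyte markers 6 rose and 0 fell, with list means of 6.49 to 6.54 and 7.82 to 7.95. Adipoq and Cd36 lay under background on all 3 DMSO arrays (means 4.82 and 4.04). Lpl, Fabp4 and Pparg lay well above it there, at 10.88, 8.92 and 8.02. Macrophage and mast cell markers lay under background on all 6 arrays in 10 of 12 cases. In RNA from mixed cells, a change in the share of cells of a type and a change in RNA per cell cannot be told apart.

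Promoter sequence is shown for Flt1, the receptor gene that passed as lower, and for Vegfa, 1 of the 2 ligand genes that passed as higher. The other, Angpt1, rose further but had no promoter window. The sequences are the 250 bases before the annotated transcription start, from RefSeq (GRCm38.p6), read on the strand of the gene. Capitals mark the matches to the cyclic AMP response element, TGACGTCA, its core TGACG, the core of the hypoxia response element, ACGTG, and the SMAD core CAGAC, searched on both strands. The SMAD palindrome GTCTAGAC was searched as well.
Flt1, chr5:147726012-147726261, minus strand: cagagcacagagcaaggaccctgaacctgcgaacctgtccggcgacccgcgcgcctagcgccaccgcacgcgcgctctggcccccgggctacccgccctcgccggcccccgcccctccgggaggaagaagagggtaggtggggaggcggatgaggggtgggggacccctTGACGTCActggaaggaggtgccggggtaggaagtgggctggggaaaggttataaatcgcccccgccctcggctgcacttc
Vegfa, chr17:46032378-46032627, minus strand: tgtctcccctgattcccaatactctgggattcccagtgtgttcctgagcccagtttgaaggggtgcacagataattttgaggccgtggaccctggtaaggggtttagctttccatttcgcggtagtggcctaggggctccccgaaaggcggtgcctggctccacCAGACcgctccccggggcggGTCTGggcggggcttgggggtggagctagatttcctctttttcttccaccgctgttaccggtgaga

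The Flt1 sequence holds the whole palindrome TGACGTCA, with its first base at position -81 counted from the start site. The palindrome accounts for both TGACG matches, at -81 and, on the other strand, -78. Among 32851 promoter windows of 300 bases in the RefSeq table, 1.79% hold that palindrome and 20.8% hold TGACG. The window of Flt1 has 70.7% G and C, beside a median of 52.7%, and 29 CpG dinucleotides beside a median of 7. The Vegfa sequence holds CAGAC matches at -86 and, on the other strand, -66, a match that 49.6% of windows hold. A further annotated start of Vegfa, within the gene, has ACGTG and TGACG matches on the opposite strand that overlap each other, at -211 and -209, and CAGAC matches at -102 and 1. ACGTG was found in 19.6% of windows and GTCTAGAC in 0.213%, the latter in 0 of the 10 windows of the group. Windows were found for 8 of the 10 genes, and Angpt1 and Angpt2 had none in the table. Binding was not measured, so these matches describe letters only.

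Among the VEGF ligands, Vegfa rose. Its values were 8.91, 8.81 and 8.84 on the DMSO arrays and 9.74, 9.69 and 9.80 on the FR arrays. Every FR value lay above every DMSO value, by more than the spread within either group. The mean went from 8.85 ± 0.05 to 9.74 ± 0.05 (SD, n = 3 per group), a 1.85-fold rise with a log2 change of 0.89 (SE 0.08, limma adjusted p = 1.53e-05). Keratinocyte and adipocyte markers rose in the same arrays, as given above, and their part in the rise of Vegfa was not tested. The probe set gives 1 value for the gene and does not tell its splice forms apart.

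The other VEGF ligand genes did not pass. Vegfb, whose product binds the receptor encoded by Flt1, had values of 8.55, 8.54 and 8.60 in DMSO and 8.32, 8.53 and 8.36 in FR. The groups stood just apart, since FR replicate 2 lay close to the DMSO values, and the log2 change was -0.16 (95% interval -0.35 to 0.03, limma adjusted p = 0.198). Vegfc, the ligand of lymphatic growth, had values of 8.17, 8.22 and 8.23 in DMSO and 8.05, 8.16 and 7.92 in FR. Its log2 change was -0.16 as well (95% interval -0.36 to 0.03, limma adjusted p = 0.197). The groups stood just apart, at 8.170 for DMSO replicate 1 and 8.164 for FR replicate 2. Pgf, which encodes placental growth factor, lay within the background range, with means of 4.84 ± 0.16 and 4.74 ± 0.17, and its groups overlapped.

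The change of Vegfa was larger than that of Vegfb by 1.05 on the log2 scale (SE 0.09), and larger than that of Vegfc by 1.05 (SE 0.11). An exact two-sided permutation test over the arrays gave p = 0.1 for either difference, also after adjustment over the 4 gene pairs compared, which is the smallest p that 3 against 3 arrays allow. The pairs were picked with the values in view.

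Vegfd, which encodes the ligand closest to VEGF-C, was not among the 10 genes but belonged to the list of partners below. It rose from 10.12 ± 0.05 to 10.58 (log2 change 0.45, 1.37-fold, limma adjusted p = 0.00174). Svep1, a matrix protein gene tied to lymphatic growth, and Adamts3, which encodes a protease that matures VEGF-C, rose by 0.34 and 0.50. The change of Adamts3 was 0.31 with the mean of its probe sets. Ccbe1, whose product assists that cleavage, fell by 0.59. Without DMSO replicate 2 the adjusted p of Svep1 was 0.0623. The choice of these 4 genes from their list was made with their values in view.

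Among the receptors, Flt1 fell further than any other of the 10 genes moved. It stood at 7.69, 7.59 and 7.64 on the DMSO arrays and at 5.52, 5.44 and 5.60 on the FR arrays. The FR arrays all lay within the background range and the DMSO arrays all lay above it, so the treated level is only bounded from above. The means were 7.64 ± 0.05 and 5.52 ± 0.08 (SD, n = 3), a measured log2 change of -2.12 (SE 0.08, limma adjusted p = 7.13e-08). Against background, Flt1 was at least 3.27-fold lower with FR. By size of change it ranked 65 of 19938 genes. The array value does not separate the membrane receptor from its soluble form.

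Kdr, the main signalling receptor gene for VEGF-A, was in the background range on every array. Its values were 4.96, 4.58 and 5.12 in DMSO and 5.07, 4.78 and 5.01 in FR, with overlapping groups and a log2 change of 0.07 (95% interval -0.23 to 0.37). Flt4 was in that range as well, at 5.21, 5.15 and 4.96 in DMSO and 4.64, 4.96 and 4.83 in FR. DMSO replicate 3 and FR replicate 2 nearly met. The log2 change of Flt4 was -0.29 (SE 0.11) and missed the threshold, with a limma adjusted p of 0.0606. It passed after quantile normalization (adjusted p = 0.0163), median centring (0.0221) and cyclic loess (0.00848). At the main scaling it also passed without DMSO replicate 3 (limma adjusted p = 0.04997) or without FR replicate 2 (0.0366). Its call thus varied with the scaling and with the arrays kept, between values that lie within background on either side.

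**Figure D2:**
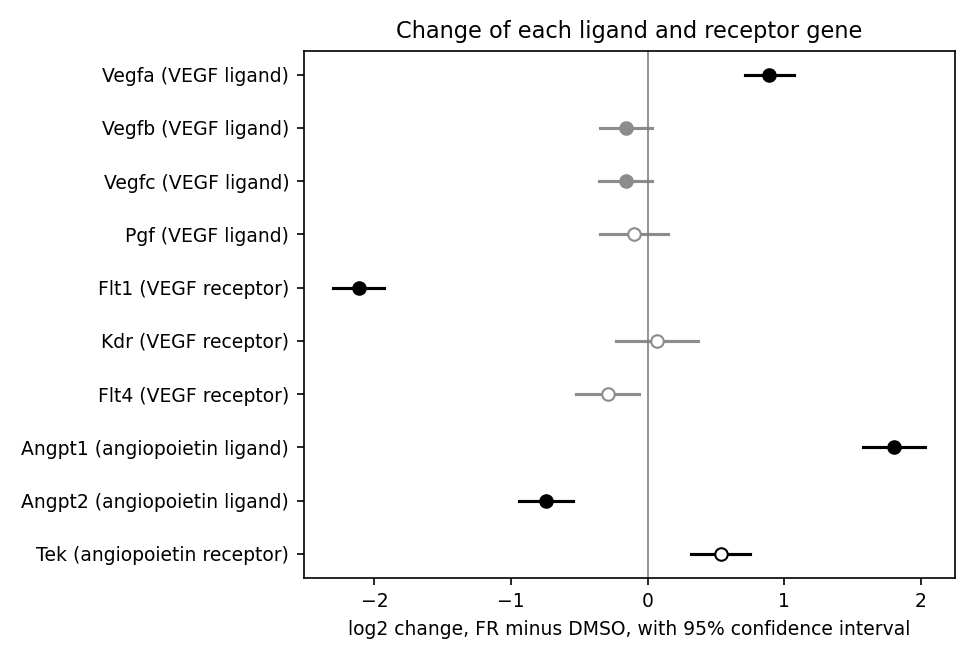
The log2 change of each gene, FR minus DMSO, with its 95% confidence interval (limma, n = 3 arrays per group). Black marks passed at adjusted p under 0.05, grey ones did not, and open marks lay within the background range on all 6 arrays. Flt1 (-2.12) and Angpt1 (1.80) lie farthest from 0.

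The angiopoietin ligand genes moved in opposite directions. Angpt1 was at 5.02, 5.25 and 4.98 on the DMSO arrays, within background, and at 7.02, 6.77 and 6.86 on the FR arrays, above it. No array of either group came near the other group. The means were 5.08 ± 0.15 and 6.89 ± 0.13 (SD, n = 3), a measured log2 change of 1.80 (SE 0.10, limma adjusted p = 5.37e-07), and the rise was at least 2.35-fold against background. By size of change Angpt1 ranked 112 of 19938 genes.

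Angpt2 was at 9.01, 8.96 and 8.97 in DMSO and at 8.39, 8.17 and 8.15 in FR. The DMSO arrays were tight and all 3 FR arrays lay lower, with FR replicate 1 nearest to them. The mean went from 8.98 ± 0.02 to 8.24 ± 0.13, a fall by 0.74 on the log2 scale (1.68-fold lower, SE 0.09, limma adjusted p = 0.000129). The change of Angpt1 exceeded that of Angpt2 by 2.55 on the log2 scale (SE 0.10, exact two-sided permutation p = 0.1, the smallest possible here). That pair too was picked with its values in view, so the p adds no support. Pericytes, cells of the vessel wall, are a known source of angiopoietin-1. Of 11 pericyte markers 4 rose and 3 fell in the same arrays, where 13.4% of all genes rose and 14.5% fell. Kcnj8, Steap4 and Abcc9 had log2 changes of 1.74, 1.72 and 1.31, and Pdgfrb, Anpep and Cspg4 of -0.96, -0.70 and -0.64. Higd1b passed as higher as well, with 0.32. Both Higd1b and Rgs5 lay under background on all 6 arrays. The mean over the list was 6.72 to 6.81 in DMSO and 7.01 to 7.06 in FR, with a median log2 change of 0.06. The part of pericytes in the changes of Angpt1 and Angpt2 was not tested. Angpt4, the further angiopoietin gene of the mouse, had a log2 change of -0.27 and did not pass (limma adjusted p = 0.077).

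Tek, which encodes the angiopoietin receptor, passed the test within the background range. Its values were 5.14, 5.16 and 4.97 in DMSO and 5.73, 5.67 and 5.47 in FR, with no overlap. The log2 change was 0.54 (SE 0.10, limma adjusted p = 0.00209). Since each array value lay under the 95th percentile of olfactory receptor genes, which had moved up too, no fold is given. Tie1, the gene of the partner receptor, was likewise within background on every array, with a log2 change of 0.18 (limma adjusted p = 0.151).

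The receptor genes are best known from endothelial cells, so their values were set beside 17 endothelial markers. Of these 9 lay under background on all 6 arrays, among them Pecam1, Cldn5, Tie1, Sox17 and Emcn. The mean over the list was 5.50 to 5.54 on the DMSO arrays and 5.63 to 5.70 on the FR arrays. By the test 5 markers rose and 1 fell, where 13.4% of all genes rose and 14.5% fell, with a median log2 change of 0.18. Those that rose were Emcn, Ramp2, Erg, Esam and Mmrn2, of which Emcn, Esam and Mmrn2 were within background in both groups. With quantile normalization, median centring or cyclic loess 3 rose, and 3 also without DMSO replicate 2 or DMSO replicate 3.

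The single fall was that of Eng, which encodes endoglin, a co-receptor for TGF-β family ligands that fibroblasts can also make. It went from 8.11 ± 0.06 in DMSO to 7.26 in FR, a fall by 0.85 on the log2 scale (limma adjusted p = 0.000219). Flt1 and 4 of the endothelial markers, Eng, Egfl7, Vwf and Cdh5 (DMSO means 8.11, 6.66, 6.14 and 5.88), lay above background on all 3 DMSO arrays, while Pecam1, Cldn5 and Kdr did not. The part of endothelial cells in the Flt1 values was not tested. Of 5 lymphatic endothelial markers measured, 4, including Prox1 and Lyve1, lay under background on all 6 arrays, as did Flt4. The other, Pdpn, lay far above it, with means of 11.42 in DMSO and 10.98 in FR. It fell, with a log2 change of -0.44 (limma adjusted p = 0.00169). The part of lymphatic cells in the Flt4 values was not tested.

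**Figure D3:**
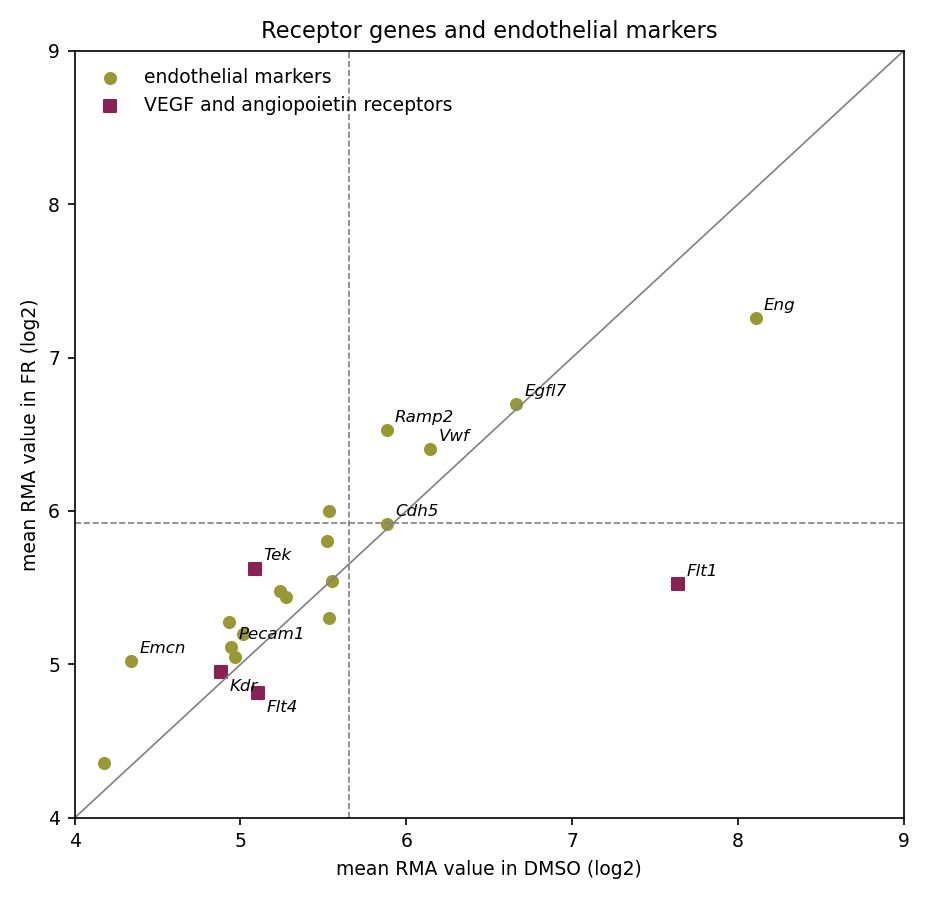
Mean log2 RMA value in FR against that in DMSO for the 4 receptor genes (squares) and 17 endothelial markers (circles), with n = 3 arrays per group. Dashed lines mark the 95th percentile of olfactory receptor genes, 5.65 in DMSO and 5.92 in FR, and the solid line marks equal values. Flt1 lies far under the line of equal values, while Kdr, Flt4 and Tek lie in the lower left with most endothelial markers.

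Partners of the ligands and receptors changed in both directions. Of 16 measured, 4 rose and 6 fell, where 13.4% of all genes rose and 14.5% fell, with a median log2 change of -0.10. The neuropilins, co-receptors that VEGF shares with semaphorins, parted: Nrp1 rose 2.40-fold (log2 change 1.26, limma adjusted p = 1.85e-06) and Nrp2 was 2.13-fold lower (log2 change -1.09, adjusted p = 5.1e-06). The changes of Nrp1 and Nrp2 differed by 2.35 on the log2 scale (SE 0.09, exact two-sided permutation p = 0.1, the smallest possible here). This pair was also picked with its values in view, so the p adds no support. Sema3a, a semaphorin that binds the protein of Nrp1, fell by 1.29. Integrin αv, encoded by Itgav, and its partner integrin β3, encoded by Itgb3, fell, with log2 changes of -1.43 and -1.09, as did integrin β1, encoded by Itgb1 (-0.57).

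Of 12 genes that endothelial cells switch on after VEGF, 2 rose, 1 fell and 9 did not pass, a share near the 27.9% of all genes that passed, and 3 of the 12 lay under background on all 6 arrays. Vcam1, an adhesion gene, rose by 0.63 and Rcan1, a calcineurin inhibitor gene, by 0.44 on the log2 scale. The fall was that of Nr4a2, a nuclear receptor gene, with a log2 change of -0.34 (limma adjusted p = 0.0385). Leaving out DMSO replicate 2 (adjusted p = 0.14), DMSO replicate 3 (0.0902), FR replicate 1 (0.0614) or FR replicate 3 (0.122) ended that call, as did quantile normalization (0.0915), cyclic loess (0.078) and ordinary variance (0.149). Esm1 and Dll4, genes of sprouting endothelium, lay within background on all 6 arrays.

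Hypoxia-inducible factors drive Vegfa when oxygen is low, and their genes and targets were set beside it. Of 19 measured, 4 rose and 6 fell, where 13.4% of all genes rose and 14.5% fell, with a median log2 change of 0.01. Epas1, which encodes HIF-2α, rose 3.58-fold from 8.13 ± 0.03 (log2 change 1.84, SE 0.08, limma adjusted p = 8.31e-08). Hif1a, which encodes HIF-1α, had a log2 change of -0.31 (limma adjusted p = 0.025). Leaving out DMSO replicate 1 (adjusted p = 0.0964), DMSO replicate 3 (0.0702) or FR replicate 2 (0.0742) ended that call, as did quantile normalization (0.0613), cyclic loess (0.0765) and ordinary variance (0.0659). Among targets, Ndrg1 rose 2.05-fold, while the peptide hormone gene Adm and the collagen hydroxylase gene P4ha1 fell, with log2 changes of -0.96 and -0.68. The glucose transporter gene Slc2a1, Pdk1 and Bnip3 fell, with log2 changes of -0.34, -0.34 and -0.38, and Ldha and Pgk1 did not pass (log2 changes 0.01 and -0.23). The remaining rises, those of Hif3a (0.28) and Egln3 (0.41), were small, and Hif3a lay under background on all 6 arrays. Both were lost after quantile normalization, median centring or cyclic loess, and 2 genes of the list then rose. The count was 2 as well with FR replicate 2, FR replicate 3 or DMSO replicate 3 left out.

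Other genes whose products act on vessels split as well. Of 21 measured, 5 rose and 7 fell, where 13.4% of all genes rose and 14.5% fell. The median log2 change was -0.05, and Vash1 and Angptl2 of that list were not analysed here. Angptl4, an angiopoietin-like lipase inhibitor gene, rose 2.48-fold, the hepatocyte growth factor gene Hgf 2.32-fold and the pleiotrophin gene Ptn 1.82-fold. The matrix signal genes Ccn1 and Ccn2 fell, with log2 changes of -1.68 and -1.66. So did Pdgfd, a platelet-derived growth factor gene (-1.30), and Thbs1, which encodes the vessel inhibitor thrombospondin-1 (-1.12). The choice of Hgf, Ptn and Thbs1 was made with their values in view.

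**Figure D4:**
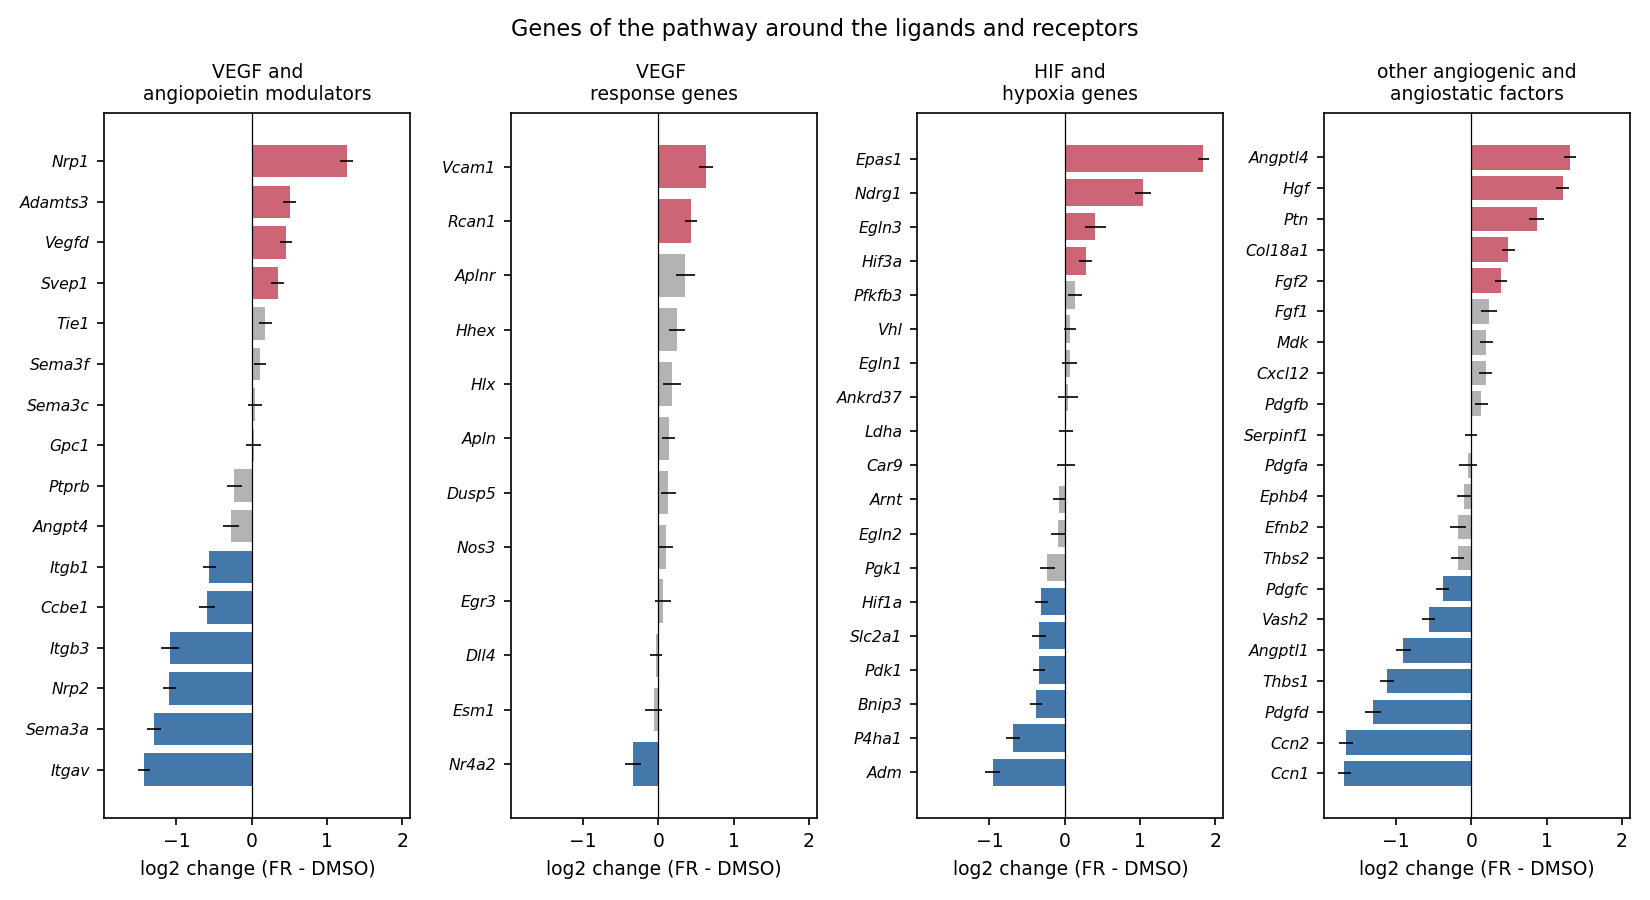
The log2 change, FR minus DMSO, of every measured gene in 4 lists around the ligands and receptors (bars, with the standard error from limma, n = 3 arrays per group). Red bars passed as higher, blue bars as lower at adjusted p under 0.05, and grey bars did not pass. Each list holds genes that rose and genes that fell, with Epas1 (1.84) the largest rise and Ccn1 (-1.68) the largest fall.

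For the 3 genes of the group with the largest changes, the genes whose values ran most alike over the 6 arrays were looked up among 18710 genes. Flt1 was closest to Cpa6, Col8a1 and Ablim1, which also fell, with Pearson r of 0.9998, 0.9994 and 0.9993. Angpt1 was closest to Auh, Dsc3 and Osr2 (0.9996, 0.9992 and 0.9991), and Vegfa to Steap4, Pi16 and Sik2 (0.9997, 0.9995 and 0.9994), all of them higher with FR. By its means, Pi16 lay under background in both groups (4.74 in DMSO and 5.83 in FR). Dsc3 did so in DMSO (5.44) and Cpa6 in FR (5.49). The 6 arrays form 2 groups, so these r mostly restate the difference between them: 201 genes reached an r over 0.99 with Flt1, 127 with Angpt1 and 173 with Vegfa.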

How the data were processed

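RNA of 6 dermal cell samples was read on one-colour Affymetrix arrays, 3 DMSO and 3 FR by title. The deposited table holds log2 values for 35556 probe sets, made by the authors with RMA in the oligo package, per the submitters' processing notes (versions and genome build not given in the sources used here). No further normalization was applied. Of the probe sets, 21789 carried 1 gene symbol in the platform annotation, 1621 several (left out) and 12146 none. The brightest probe set per gene was kept, giving 19938 genes.

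The test was that of limma 3.58.1 (lmFit and eBayes, two-sided, group as only term), run under R 4.3.3, with Benjamini-Hochberg adjustment, and the code was tested on simulated data. The labels do not say that arrays came from separate cultures, so the p-values reflect the spread between arrays alone, part or all of it possibly technical. The number of arrays limits precision (median SE of a log2 change 0.0962).

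The 10 genes and all gene lists were chosen with earlier results of these data known. Named by rule beside the 10 were up to 4 genes per pathway list, those with the largest change that passed. So were the 3 genes most alike each of 3 members. Further list members were named outside that rule, such as Itgb3, Itgb1, Slc2a1, Pdk1 and Bnip3. Some of them are said to be picked with their values in view, and some are given for contrast. Alternatives were other scalings, a filter on dim genes, probe set means, other variance models, array weights, a minimum change, a replicate block and leaving out each array.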

Additional observations from a re-analysis of the deposited data

How the results depend on the processing

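Over the other settings the 10 genes gave 156 results, of which 149 kept their call, 5 gained one, 2 lost one and 0 of those called reversed. Log2 changes ranged from 0.83 to 0.97 for Vegfa, -2.17 to -2.08 for Flt1, 1.73 to 1.89 for Angpt1, -0.82 to -0.66 for Angpt2 and 0.42 to 0.61 for Tek. Testing against a minimum log2 change of 0.5 ended the calls of Angpt2 (-0.74, adjusted p = 0.204) and Tek (0.54, adjusted p = 1). That left 1 of the 10 genes lower, and 412 higher and 430 lower over all genes. Without variance moderation 1484 genes were higher and 1880 lower over all genes. Flt4 passed as lower after quantile normalization (-0.39), median centring (-0.35) and cyclic loess (-0.42), and without DMSO replicate 3 or FR replicate 2, with -0.37 to -0.21 over the arrays left out. For Flt4 at the other scalings the cause was not tested. Leaving out 1 array gave 1803 to 2975 higher genes and 2230 to 2939 lower genes. The filter on dim genes left out Pgf, Kdr, Flt4 and Tek, which have no value under it. Deviations from the group mean did not pair by replicate number (correlations -0.07, 0.05 and -0.03). With the replicate number as a block, 3 of the 10 genes were higher and 2 lower, and 2311 genes were higher and 2666 lower over all genes. Signal over background limits Pgf, Kdr, Flt4 and Tek in both groups, Flt1 in FR and Angpt1 in DMSO.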
